A study of Mus musculus with 10 samples.

Results

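The surface markers that are used to sort or define skeletal stem cells were followed in 2 cell populations of the mouse skull sutures. The set comprised 10 genes of the 25239 in the deposited count table and was chosen by gene symbol: Cd200, Itgav, Eng, Thy1, Enpep, Pdpn, Ly6a, Nt5e, Mcam and Lepr. DDR2-plus cells, named for the collagen receptor kinase DDR2, had 5 libraries, and PSC cells, an abbreviation that the labels leave unexpanded, had 5 libraries. Both were isolated by flow sorting from calvarial sutures, the fibrous joints of the skull vault, at postnatal day 7. The labels call both calvarial stem cells and wild type and do not give the sorting gates. The protocol names Ctsk-Cre mice, that is, mice with a recombinase driven by the gene of cathepsin K, and states 5 animals. It does not tie animals to libraries, so the p-values below measure the spread between these libraries, which may be technical in part.

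Skeletal stem cells are commonly isolated by their surface proteins and not by a single defining gene. In the mouse scheme, cells that carry the integrin chain alpha-V (Itgav) and the immune-regulatory glycoprotein CD200 (Cd200) and that lack endoglin (Eng), THY1 (Thy1) and the 6C3 antigen (Enpep) are taken as the stem cell fraction. In human bone, podoplanin (PDPN) and the ectonucleotidase CD73 (NT5E) mark a comparable fraction that lacks CD146 (MCAM). SCA-1 (Ly6a) and the leptin receptor (Lepr) mark mesenchymal and perivascular stromal cells of mouse bone marrow. Sorting reads protein on the surface, whereas the values here are transcripts.

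In the GENCODE M21 annotation of build GRCm38, which mm10 names, Itgav spans chr2:83724397-83806916 (plus strand) and Eng chr2:32646595-32682669 (plus). Enpep spans chr3:129269175-129332720 (minus), Pdpn chr4:143267431-143299564 (minus) and Lepr chr4:101717404-101815352 (plus). Thy1 and Mcam lie on the plus strand, at chr9:44043384-44048579 and chr9:44134469-44142727, and Nt5e lies on the same chromosome and strand at chr9:88327197-88372092. Ly6a spans chr15:74994877-74998031 (minus) and Cd200 chr16:45382135-45409053 (minus). Values are gene-level counts, so that exons and isoforms are not told apart.

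Of the 10 markers, 1 was higher and 4 were lower in DDR2-plus, and 5 did not pass the test. Nt5e was the marker that rose, 1.94-fold. Pdpn, Ly6a, Mcam and Itgav fell, by 1.98-fold, 1.94-fold, 2.23-fold and 1.28-fold. Cd200, Eng, Thy1, Enpep and Lepr did not pass. The test was edgeR's quasi-likelihood test over 15416 genes with Benjamini-Hochberg adjustment, a threshold of 0.05 and counts scaled by TMM factors, which correct library size for shifts in composition. Of all genes tested, 39.1% passed, 20.1% as higher and 19.0% as lower, so that 5 of 10 markers was near the background and is not a result about the set. The gene lists below were not tested as sets either, and their counts are to be read beside these shares. The median log2 fold change of the markers was -0.24, against 0.04 over all genes tested. Scaling by library size alone moved the median of all genes to 0.31. In that setting Itgav and Mcam lost their calls and Cd200, Thy1, Enpep and Lepr changed sign without passing. Nt5e, Pdpn and Ly6a kept theirs.

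Library depth and sorting checks were as follows. Total counts lay between 49843470 and 62021992 in DDR2-plus and between 43419129 and 58270419 in PSC (exact permutation test, two-sided p = 0.111). The collagen genes Col1a1 and Col1a2 took 5.97% ± 1.46 of counts in DDR2-plus and 22.8% ± 0.832 in PSC (SD, n = 5 each). The two-sided p of an exact permutation test was 0.00794, which is the minimum for 5 against 5 libraries. Ddr2 itself was present in every library but 1.36-fold lower in DDR2-plus, the population named for it, at 107 to 116 CPM (counts relative to the TMM-scaled library size) against 134 to 160.2 CPM in PSC (edgeR adjusted p = 0.000165, and 0.0491 with library size alone). Ctsk was 2.74-fold lower, at 97.8 to 134 CPM in DDR2-plus against 278 to 314 CPM in PSC. Markers of other cells moved between the populations. All 8 cartilage markers were higher in DDR2-plus, as were 7 of 8 neuron markers and 6 of 7 Schwann cell markers tested, whereas 6 of 8 osteoblast markers and 6 of 7 tendon markers were lower. With library size alone, 8 of 8 neuron and 7 of 7 Schwann cell markers passed as higher. The part of these cells in the values below was not tested, and in bulk libraries fewer cells of a type and less RNA per cell cannot be told apart.

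**Figure D1:**
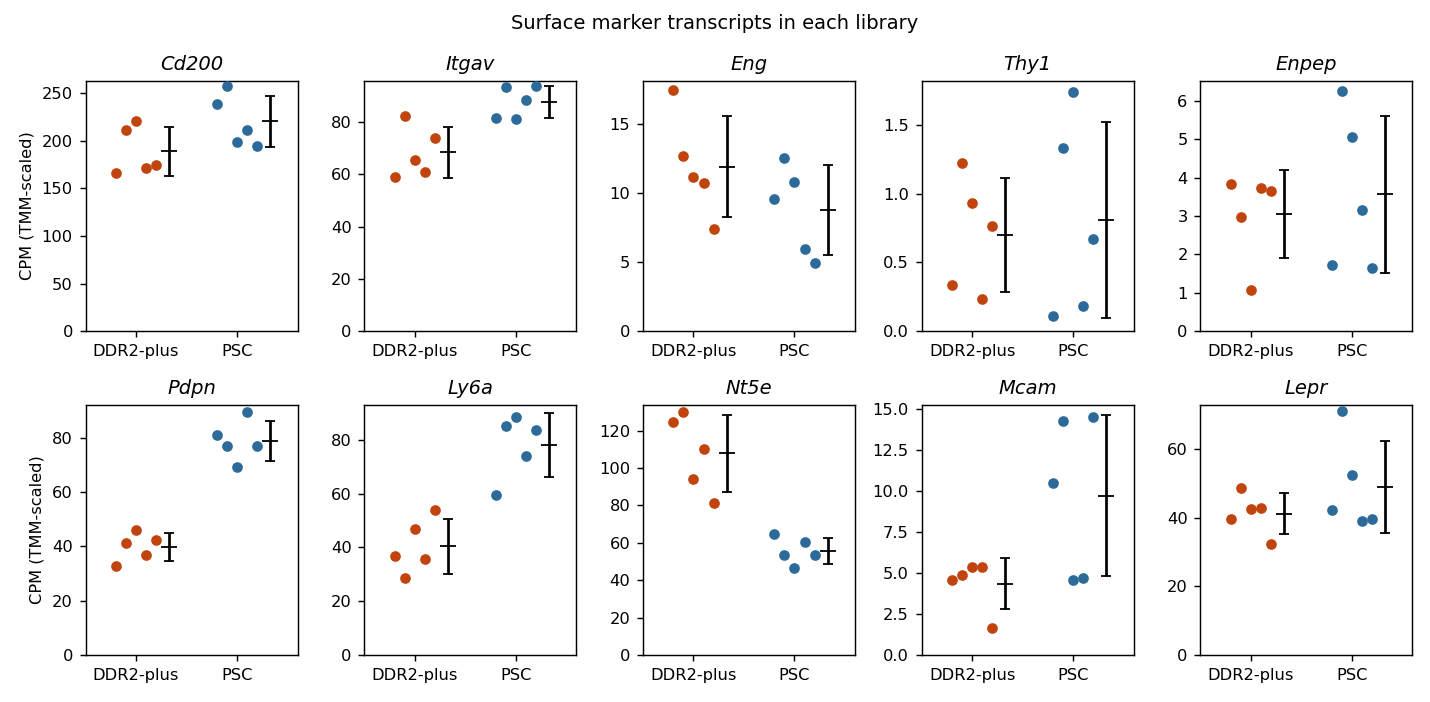
TMM-scaled CPM of the 10 surface markers in each library, with DDR2-plus libraries on the left and PSC libraries on the right of each panel; points are libraries 1 to 5 from left to right, and bars are the mean and SD (n = 5 each). The populations did not overlap for Pdpn, Ly6a and Nt5e, a separation found in 30.1% of all genes tested.

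Cd200 and Itgav are the markers that the mouse scheme requires to be present. Cd200 encodes a glycoprotein that restrains myeloid cells through CD200 receptors. It had 166, 211, 221, 171 and 175 CPM in DDR2-plus 1 to 5, against 238, 258, 199, 212 and 195 CPM in PSC 1 to 5. These ranges overlapped, and every library held at least 7823 Cd200 counts. The log2 fold change was -0.22 (SE 0.106, 95% interval -0.45 to 0.01; edgeR adjusted p = 0.116), so that a fall of up to 0.45 on the log2 scale lies within the interval. The mean was 189 ± 25.4 CPM in DDR2-plus, compared with 220.4 ± 27.1 CPM in PSC (SD, n = 5 each). Without DDR2-plus 3 the log2 fold change was -0.30 and passed (edgeR adjusted p = 0.0448).

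Itgav, which encodes the alpha-V chain of the vitronectin and fibronectin receptors, had 59.0, 82.5, 65.7, 61.0 and 74.0 CPM in DDR2-plus 1 to 5. It had 81.5, 93.6, 81.2, 88.6 and 93.8 CPM in PSC 1 to 5. Only DDR2-plus 2 lay inside the PSC range. The mean was 68.4 ± 9.76 CPM in DDR2-plus, compared with 87.8 ± 6.22 CPM in PSC. The log2 fold change was -0.36 (SE 0.0975, n = 5 each; edgeR adjusted p = 0.0109). With library size alone it was -0.094 (edgeR adjusted p = 0.426), and its adjusted p ranged over 19 alternative settings from 0.00249 to 0.426. Alpha-V pairs with a beta chain to form a receptor. Of the 4 beta partners tested, 3 fell and 0 rose: Itgb1, which has many other alpha partners, was 1.5-fold lower, Itgb5 1.65-fold and Itgb3 2.66-fold, and all 3 calls held with library size alone. Itgb8 stood at 1.52 ± 1.15 CPM in DDR2-plus, compared with 0.564 ± 0.517 CPM in PSC, and did not pass, and Itgb6, below 1 CPM on average in both, was not tested. Genes of alpha-V ligands went both ways, with 2 of 9 higher and 7 lower in DDR2-plus. Fn1, which encodes fibronectin, and Ccn1, a matricellular protein gene, were 1.75-fold and 2.63-fold higher. Spp1, which encodes osteopontin, and Ibsp, which encodes bone sialoprotein, were 5.42-fold and 1.94-fold lower. The 9 ligand calls had the same direction with library size alone.

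Upstream sequences are shown for Cd200, Itgav, Pdpn, Eng and Enpep, the 5 markers with a RefSeq start site (build GRCm38.p6, the assembly of mm10) whose 250 preceding bases hold no annotated exon. Each line is read 5′ to 3′ on the gene's strand, and capitals mark a match to 1 of 6 short motifs on either strand. Cd200 lies on the minus strand with its window at chr16:45409054-45409303, Itgav on the plus strand at chr2:83724147-83724396 and Pdpn on the minus strand at chr4:143299565-143299814. Eng lies on the plus strand with its window at chr2:32646345-32646594, and Enpep on the minus strand at chr3:129332750-129332999.
Cd200: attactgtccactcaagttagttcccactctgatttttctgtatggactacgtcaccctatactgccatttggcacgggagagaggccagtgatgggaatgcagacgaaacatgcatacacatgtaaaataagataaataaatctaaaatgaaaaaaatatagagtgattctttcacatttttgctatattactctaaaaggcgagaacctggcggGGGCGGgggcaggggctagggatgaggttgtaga
Itgav: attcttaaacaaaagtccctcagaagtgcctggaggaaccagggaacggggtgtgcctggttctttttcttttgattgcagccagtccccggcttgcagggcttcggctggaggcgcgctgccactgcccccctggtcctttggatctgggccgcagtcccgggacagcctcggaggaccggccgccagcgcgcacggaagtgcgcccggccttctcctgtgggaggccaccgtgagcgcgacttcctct
Pdpn: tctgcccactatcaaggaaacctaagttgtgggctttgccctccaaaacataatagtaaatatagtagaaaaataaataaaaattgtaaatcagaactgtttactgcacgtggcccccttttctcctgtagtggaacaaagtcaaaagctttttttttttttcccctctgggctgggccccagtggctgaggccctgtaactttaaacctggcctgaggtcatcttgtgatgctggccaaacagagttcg
Eng: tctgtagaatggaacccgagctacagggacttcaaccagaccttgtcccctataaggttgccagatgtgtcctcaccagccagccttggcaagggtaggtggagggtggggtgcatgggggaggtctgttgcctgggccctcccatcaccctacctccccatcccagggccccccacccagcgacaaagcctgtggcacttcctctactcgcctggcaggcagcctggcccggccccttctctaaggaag
Enpep: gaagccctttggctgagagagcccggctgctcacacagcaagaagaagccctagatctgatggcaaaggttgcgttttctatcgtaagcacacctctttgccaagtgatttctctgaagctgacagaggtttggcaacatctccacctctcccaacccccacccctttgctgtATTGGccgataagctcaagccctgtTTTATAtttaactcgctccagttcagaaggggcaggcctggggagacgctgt
The motifs searched, with the share of all 32851 upstream windows of that length holding each, were the GC box spelled GGGCGG (32.74%), the CCAAT box spelled by its name (33.85%) and the TATA box spelled TATAAA (12.37%). The others were the AP-1 site spelled TGANTCA (6.75%), the RUNX site spelled TGTGGT (14.05%) and the cAMP response element spelled TGACGTCA (1.55%). The Cd200 window held 1 GC box, whose first base lies 34 bases before the start, and the Enpep window held 1 CCAAT box and 1 TATA box, 77 and 52 bases before it, both on the opposite strand. The Itgav, Pdpn and Eng windows held none of the 6 motifs. CpG dinucleotides numbered 6 in the Cd200 window, 18 in the Itgav window, 2 in the Pdpn window, 4 in the Eng window and 6 in the Enpep window, against a median of 6 over all windows. A match is a description of the letters and not a binding site. RefSeq windows matched 8 of the 10 markers and not Thy1 or Ly6a.

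Eng, Thy1 and Enpep are the markers that the mouse scheme requires to be absent. Eng encodes endoglin, a co-receptor of BMP and TGF-beta ligands that is abundant in vessels. It had 17.4, 12.6, 11.1, 10.7 and 7.41 CPM in DDR2-plus 1 to 5, against 9.57, 12.5, 10.8, 5.97 and 4.90 CPM in PSC 1 to 5. The ranges overlapped, and the log2 fold change of 0.44 did not pass (SE 0.283, 95% interval -0.17 to 1.05; edgeR adjusted p = 0.246). Of 13 tested genes of the receptor pathway that endoglin serves, 5 fell and 0 rose in DDR2-plus, where 39.1% of all genes tested passed. This count is near that share and is not a result about the pathway. Acvrl1, the signalling receptor that binds ligand beside endoglin, was 2.46-fold lower, at 10.6 ± 2.91 CPM against 26.2 ± 7.16 CPM in PSC, and the TGF-beta receptor gene Tgfbr1 was 1.71-fold lower. Bmpr2, Smad1 and Smad3 were 1.24-fold, 1.19-fold and 1.22-fold lower, and these 3 lost their calls with library size alone, where Smad2 passed as higher, so that the list then had 1 higher and 2 lower. Tgfbr2, the type II TGF-beta receptor gene and the most abundant of the list, stood at 241 ± 27.8 CPM in DDR2-plus, compared with 274 ± 20.1 CPM in PSC, and did not pass. The co-receptor gene Tgfbr3 at 92.9 ± 13.9 CPM and 91.3 ± 13.3 CPM, and Smad4, the shared signal carrier, at 51.0 ± 19.1 CPM and 75.0 ± 36.4 CPM in the same order, did not pass either.

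Thy1, which encodes a GPI-anchored glycoprotein of fibroblasts, neurons and T cells, was the least abundant of the 10. It had 19, 70, 57, 16 and 44 counts in DDR2-plus 1 to 5, against 6, 59, 75, 8 and 27 counts in PSC 1 to 5. That is 0.698 ± 0.412 CPM in DDR2-plus, compared with 0.806 ± 0.711 CPM in PSC (SD, n = 5 each). The spread within each population was wider than the difference between them, and the 95% interval of the log2 fold change, -1.92 to 1.51, covers changes of either sign (edgeR adjusted p = 0.863). The neuron markers summed to 42.2 to 137 CPM in DDR2-plus libraries and 6.78 to 14.1 CPM in PSC libraries. Cd3e, a T cell gene, had 6 counts over all DDR2-plus libraries and 4 over all PSC libraries.

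Enpep encodes aminopeptidase A, which cleaves angiotensin II and carries the 6C3 epitope. It had 3.84, 2.97, 1.08, 3.72 and 3.66 CPM in DDR2-plus 1 to 5, against 1.73, 6.26, 5.05, 3.16 and 1.64 CPM in PSC 1 to 5. Its log2 fold change of -0.22 did not pass (SE 0.458, 95% interval -1.22 to 0.77; edgeR adjusted p = 0.739). Of 8 tested genes of angiotensin production, cleavage and reception, 4 fell and 1 rose in DDR2-plus, where 39.1% of all genes tested passed. The receptor genes Agtr1a and Agtr2 were 3.32-fold and 2.48-fold lower. The peptidase genes Ace and Anpep were 2.09-fold and 3.56-fold lower, and Lnpep, another aminopeptidase gene, was 2.17-fold higher. Agt, the precursor gene, stood at 24 ± 3.75 CPM in DDR2-plus, compared with 18.1 ± 7.10 CPM in PSC, and the peptidase gene Mme at 34.5 ± 8.34 CPM and 43.9 ± 9.82 CPM in the same order, without a call. The receptor gene Agtr1b, at 0.588 ± 0.280 CPM and 0.536 ± 0.398 CPM, did not pass. Agt passed as higher with library size alone.

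**Figure D2:**
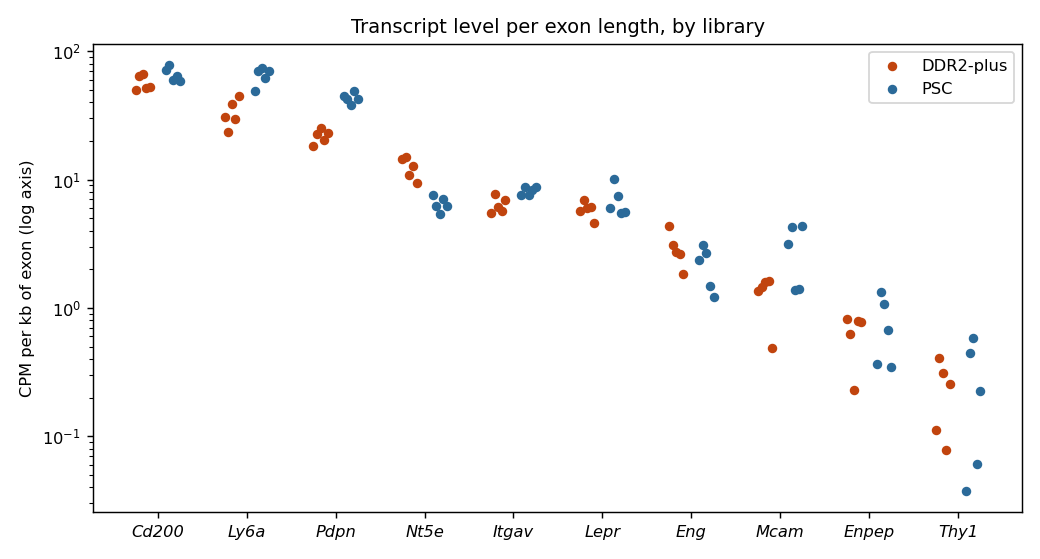
TMM-scaled CPM per kb of exon (log axis) for each surface marker in each of the 5 DDR2-plus (left of each pair) and 5 PSC libraries. By mean over libraries, Cd200 was highest and Thy1 lowest in both populations. The ranges of Cd200 and Ly6a overlapped in PSC, and those of Enpep and Thy1 overlapped in both.

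Transcript levels of different genes were compared per kilobase of annotated exon. In DDR2-plus the order was Cd200 at 56.9 ± 7.65, Ly6a at 33.5 ± 8.37, Pdpn at 21.9 ± 2.81 and Nt5e at 12.6 ± 2.38 CPM per kb. It continued with Itgav at 6.37 ± 0.908, Lepr at 5.85 ± 0.838 and Eng at 2.93 ± 0.903, and ended with Mcam at 1.30 ± 0.468, Enpep at 0.649 ± 0.245 and Thy1 at 0.233 ± 0.138 CPM per kb (SD, n = 5). Ranges of neighbours overlapped between Ly6a and Pdpn, between Itgav and Lepr, between Mcam and Enpep, and between Enpep and Thy1. In PSC the order was Cd200 at 66.4 ± 8.16, Ly6a at 64.9 ± 9.81 and Pdpn at 43.4 ± 4.04 CPM per kb, then Itgav at 8.17 ± 0.579, Lepr at 6.94 ± 1.92 and Nt5e at 6.48 ± 0.816. Mcam at 2.90 ± 1.46, Eng at 2.16 ± 0.798, Enpep at 0.758 ± 0.434 and Thy1 at 0.269 ± 0.237 CPM per kb came last. Cd200 and Ly6a overlapped in PSC, as did Itgav with Lepr, Lepr with Nt5e, Mcam with Eng, Eng with Enpep, and Enpep with Thy1. In both populations Cd200 and Itgav thus stood above Eng, Enpep and Thy1 in every library. Nt5e stood above Itgav and Lepr in every DDR2-plus library, and its range in PSC lay below that of Itgav.

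Pdpn, Nt5e and Mcam belong to the human scheme. Pdpn encodes podoplanin, a mucin-type membrane protein of fibroblastic, lymphatic and early osteocytic cells. It had 32.9, 41.1, 46.1, 36.7 and 42.2 CPM in DDR2-plus 1 to 5, against 81.2, 77.1, 69.3, 89.4 and 76.9 CPM in PSC 1 to 5. Every DDR2-plus library was below every PSC library, a separation found in 30.1% of all genes tested. The log2 fold change was -0.98 (SE 0.101, 95% interval -1.20 to -0.76, n = 5 each; edgeR adjusted p = 9.99e-06). It lay between -1.05 and -0.72 over the 19 alternative settings. Podoplanin binds ezrin and moesin inside the cell. Ezr was 2.50-fold higher in DDR2-plus, with 153 ± 28.5 CPM against 61.0 ± 9.25 CPM in PSC, whereas Msn was 1.46-fold lower, at 179 ± 19.0 CPM against 262 ± 22.8 CPM. Rdx, the third gene of that family, stood at 138 ± 17.1 CPM in DDR2-plus, compared with 133 ± 19.1 CPM in PSC, without a call, and passed as higher with library size alone. Among the 6 partner genes tested, Cd9, a tetraspanin gene, was also higher (1.54-fold), and Lgals8 and Rhoa were lower (1.42-fold and 1.15-fold). The last 2 lost their calls with library size alone. The platelet receptor gene Clec1b averaged 0.151 CPM in DDR2-plus, compared with 0.0904 CPM in PSC, and was not tested.

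Nt5e encodes CD73, which turns extracellular AMP into adenosine. It had 124.8, 129.8, 94.0, 110.1 and 81.1 CPM in DDR2-plus 1 to 5, against 64.7, 53.4, 46.7, 60.5 and 53.3 CPM in PSC 1 to 5. Every DDR2-plus library was above every PSC library. The mean was 108 ± 20.5 CPM in DDR2-plus, compared with 55.7 ± 7.02 CPM in PSC. The log2 fold change was 0.95 (SE 0.132, 95% interval 0.67 to 1.24, n = 5 each; edgeR adjusted p = 0.000104). It lay between 0.87 and 1.22 over the 19 alternative settings. Of 11 tested genes of adenosine production, transport and reception, 2 rose and 4 fell, where 39.1% of all genes tested passed. Adk, the kinase that returns adenosine to AMP, was 1.57-fold higher and the receptor gene Adora1 4.93-fold higher. Entpd2 and Entpd3, whose products cleave extracellular ATP, were 4.71-fold and 1.40-fold lower. Also lower were Enpp1 (2.08-fold), whose product cleaves ATP to AMP and pyrophosphate, and the transporter gene Slc29a1 (1.35-fold). The calls of Entpd3 and Slc29a1 were lost with library size alone. Ada, Entpd1, Slc29a2, Adora2a and Adora2b, with means of 0.301 to 4.36 CPM in DDR2-plus and 0.873 to 5.98 CPM in PSC, did not pass.

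The ratio of 2 markers within a library does not depend on how libraries are scaled to each other. There were 3.79, 3.16, 2.04, 3.0 and 1.92 Nt5e counts per Pdpn count in DDR2-plus 1 to 5. In PSC 1 to 5 there were 0.797, 0.692, 0.674, 0.677 and 0.693. The ratio was thus higher in every DDR2-plus library than in any PSC library. Nt5e by itself was higher and Pdpn by itself lower in every DDR2-plus library. The separation of their ratio was therefore fixed by these values and adds no further support. Nt5e has the longer exons, so the ratio of counts does not rank the 2 genes. Per exon length Nt5e was below Pdpn in both populations, at 9.43 to 15.1 CPM per kb against 18.1 to 25.4 CPM per kb for Pdpn in DDR2-plus, and at 5.43 to 7.52 against 38.1 to 49.2 CPM per kb in PSC. Relative to Cd200, the log2 ratio of Nt5e was -0.82 ± 0.341 in DDR2-plus and -1.98 ± 0.194 in PSC, and that of Pdpn was -2.25 ± 0.124 in DDR2-plus and -1.48 ± 0.195 in PSC (SD, n = 5 each). These 2 ratios did not overlap between the populations, whereas those of Ly6a, Itgav, Lepr, Mcam, Eng, Enpep and Thy1 did. The share of all genes whose ratio to Cd200 separates the populations was not computed, so this is not a result about the set. The Lepr to Cd200 ratio was -2.20 ± 0.194 in DDR2-plus and -2.20 ± 0.294 in PSC.

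**Figure D3:**
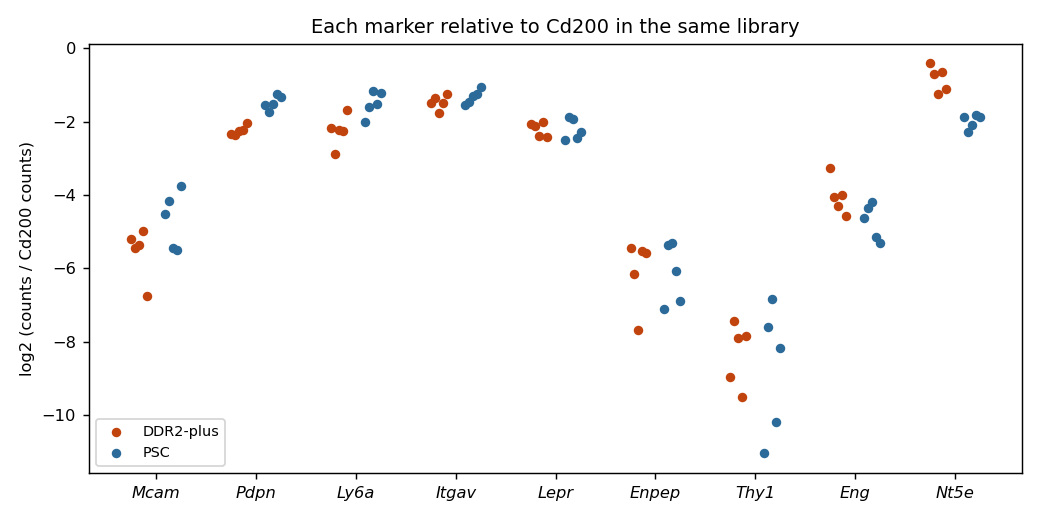
Log2 of the counts of each surface marker over the Cd200 counts of the same library, for the 5 DDR2-plus (left of each pair) and 5 PSC libraries. The points of Nt5e and Pdpn do not overlap between the populations, and those of the other 7 markers do. The share of all genes that separate in this ratio was not computed.

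Mcam encodes CD146, an adhesion molecule of endothelial and perivascular cells. It had 4.57, 4.87, 5.35, 5.39 and 1.62 CPM in DDR2-plus 1 to 5, against 10.5, 14.3, 4.58, 4.71 and 14.5 CPM in PSC 1 to 5. PSC 3 and PSC 4 lay within the DDR2-plus range and PSC 1, 2 and 5 above it. The log2 fold change of -1.16 passed (SE 0.402, 95% interval -2.03 to -0.28, n = 5 each; edgeR adjusted p = 0.0369). The call was lost in 10 of 19 alternative settings, namely library size alone, limma-voom (adjusted p = 0.0547), the block by library number, and the 7 in which 1 library was left out among DDR2-plus 1, 2, 4 and 5 and PSC 1, 2 and 5. Those 7 gave edgeR adjusted p from 0.0506 to 0.092. Mural cell markers went both ways: of 9 tested, 6 were lower and 2, Acta2 and Cspg4, were higher in DDR2-plus. Pdgfrb lost its lower call with library size alone. Myh11 of smooth muscle was at 0.245 to 2.07 CPM in DDR2-plus and 11 to 25.3 CPM in PSC. Kcnj8 of pericytes was at 4.77 to 11.9 CPM in DDR2-plus and 29.8 to 74.1 CPM in PSC, while the pericyte marker Rgs5 was at 0.327 to 5.60 CPM and 1.24 to 3.11 CPM in the same order. Summed CPM of the 10 mural markers ranged from 856.2 to 1109 over DDR2-plus libraries and from 742 to 807 over PSC libraries. Cspg4 was the largest part of both sums, averaging 614 CPM over DDR2-plus libraries against 317 CPM over PSC libraries. The higher sum thus rests largely on Cspg4, whereas 6 of the 9 markers tested were lower. The part of mural markers in the Mcam difference was not tested.

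Endothelial markers, which bear on both Mcam and Eng, were mixed. Of 8 tested, Pecam1, Kdr and Egfl7 were higher and Cdh5 and Tek lower in DDR2-plus, and Tek lost its call with library size alone. Pecam1, the adhesion gene of vessels that sorts commonly exclude, was at 2.09 to 6.64 CPM in DDR2-plus and 0 to 0.972 CPM in PSC. Cdh5, which encodes vascular cadherin, was at 3.12 to 6.45 CPM in DDR2-plus and 8.84 to 14.9 CPM in PSC. The 10 endothelial markers summed to 26.1 to 57.3 CPM in DDR2-plus and 21.9 to 43.6 CPM in PSC, and their part in the Eng and Mcam values was not tested. Ptprc, the pan-leukocyte gene CD45, was not tested. It was at 0 to 2.39 CPM in DDR2-plus (mean 0.594), most of it in 1 library, and at 0 to 0.0377 CPM in PSC. The 10 haematopoietic markers summed to 12.6 to 26.7 CPM in DDR2-plus and 7.85 to 20.5 CPM in PSC. Among the 6 MCAM ligands and partners, Kdr (5.15-fold) and Lgals3 (2.52-fold) were higher and Lgals1, a galectin gene, was 4.77-fold lower, at 299 ± 93.0 CPM in DDR2-plus against 1425 ± 125 CPM in PSC. The laminin gene Lama4 stood at 171 ± 16.5 CPM in DDR2-plus, compared with 172 ± 18.7 CPM in PSC, and Wnt5a at 30.0 ± 7.81 CPM and 43.2 ± 11 CPM in the same order, both without a call, as was Lama5 at 2.40 ± 1.32 CPM and 3.65 ± 1.46 CPM. Lama4 passed as higher with library size alone.

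**Figure D4:**
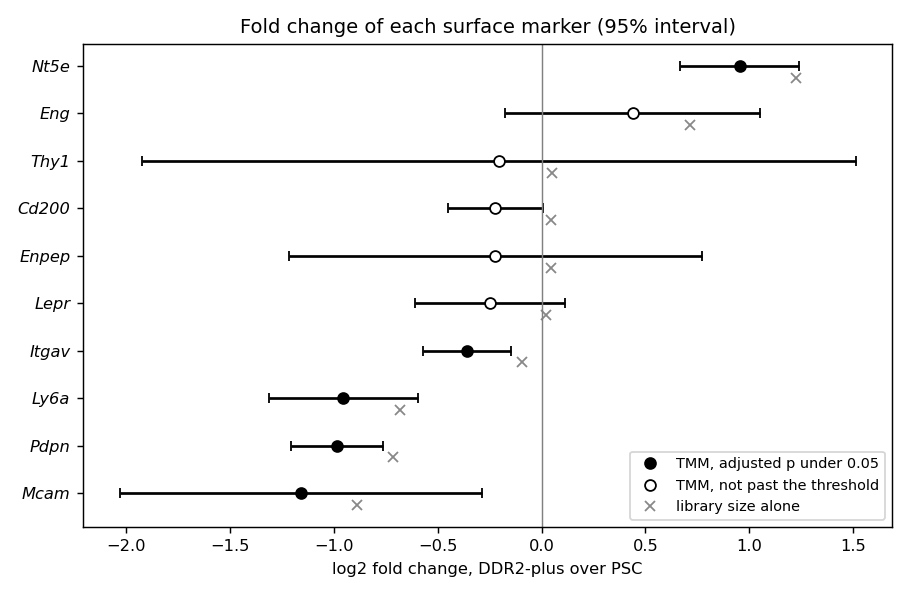
Log2 fold change of each surface marker, DDR2-plus over PSC, with its 95% interval from the edgeR fit (n = 5 each); filled points passed the threshold, open points did not, and crosses give the value with library size alone. Nt5e lies at 0.95, Pdpn at -0.98 and Ly6a at -0.95.

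Ly6a and Lepr mark stromal cells of mouse bone. Ly6a encodes the GPI-anchored stem cell antigen SCA-1. It had 36.7, 28.5, 47.0, 35.7 and 54.0 CPM in DDR2-plus 1 to 5, against 59.3, 85.1, 88.6, 74.1 and 83.8 CPM in PSC 1 to 5. The populations did not overlap, with DDR2-plus 5 and PSC 1 nearest to each other. The mean was 40.4 ± 10.1 CPM in DDR2-plus, compared with 78.2 ± 11.8 CPM in PSC. The log2 fold change was -0.95 (SE 0.164, 95% interval -1.31 to -0.60, n = 5 each; edgeR adjusted p = 0.000562). It lay between -1.09 and -0.68 over the 19 alternative settings.

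Ly6a belongs to a cluster of near-copies on chromosome 15, so reads may be shared among them. Of all stretches of 50 bases, the sequencing length, in annotated Ly6a transcripts, 19.0% also occur in transcripts of other genes and 15.0% in those of Ly6c1. The first 90 coding bases are shown for Ly6a and 3 relatives, all on chromosome 15. They were picked as the stretch of that length with the most bases identical in Ly6c1. The longest unbroken match to Ly6c1 in the aligned coding sequences was 45 bases, so the bases shown hold no stretch of 50 shared with Ly6c1. They come from the GENCODE M21 transcripts, and capitals mark bases that differ from Ly6a.
Ly6a: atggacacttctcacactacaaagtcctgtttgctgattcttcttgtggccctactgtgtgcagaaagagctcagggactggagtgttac
Ly6c1: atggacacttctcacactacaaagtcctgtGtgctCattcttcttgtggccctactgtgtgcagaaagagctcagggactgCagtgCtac
Ly6c2: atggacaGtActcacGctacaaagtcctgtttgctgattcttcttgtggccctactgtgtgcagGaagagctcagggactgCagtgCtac
Ly6i: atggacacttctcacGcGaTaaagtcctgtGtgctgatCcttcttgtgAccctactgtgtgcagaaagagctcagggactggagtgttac
Ly6c1 differs from Ly6a at 4 of these bases, and Ly6c2 and Ly6i at 6 each. The 405 coding bases of Ly6a were aligned to the longest annotated coding sequence of each relative. These had 444 bases in Ly6c1, 396 in Ly6c2 and 405 in Ly6i. Identity over the Ly6a coding bases was 74.8% for Ly6c1, 81.7% for Ly6c2 and 86.4% for Ly6i, and other isoforms may give other values. These relatives were rarer than Ly6a. Ly6c1 stood at 10.2 ± 3.58 CPM in DDR2-plus, compared with 15.0 ± 4.0 CPM in PSC, Ly6c2 at 1.77 ± 0.676 CPM and 1.5 ± 0.343 CPM, and Ly6i at 0.291 ± 0.113 CPM and 0.452 ± 0.230 CPM in the same order, and none of the 3 passed the test. Among 10 tested Ly6 relatives, Ly6h was 3.48-fold higher and Cd59a, a complement inhibitor gene, 2.54-fold lower. Ly6e, the most abundant, stood at 121 ± 9.86 CPM in DDR2-plus, compared with 116 ± 9.52 CPM in PSC, and Lynx1 at 18.2 ± 3.86 CPM and 13.9 ± 3.59 CPM. Both passed as higher with library size alone.

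Lepr encodes the leptin receptor. It had 39.8, 48.8, 42.5, 42.8 and 32.5 CPM in DDR2-plus 1 to 5, against 42.3, 71.1, 52.6, 39.0 and 39.7 CPM in PSC 1 to 5. Only PSC 2 and PSC 3 were above the highest DDR2-plus library. The mean was 41.3 ± 5.91 CPM in DDR2-plus, compared with 49.0 ± 13.5 CPM in PSC, and the log2 fold change of -0.25 did not pass (SE 0.166, 95% interval -0.61 to 0.11; edgeR adjusted p = 0.268). Lep, the ligand gene, had 0 counts in all libraries. Of 9 tested genes of leptin signalling, Socs3, a feedback inhibitor gene, was 2.11-fold higher and the adaptor gene Irs2 1.91-fold higher. Leprot, whose product affects the receptor's traffic to the surface, was 1.22-fold lower, at -0.29 on the log2 scale, and without a call with library size alone. Stat3, the main transcription factor of the pathway, stood at 166 ± 15.4 CPM in DDR2-plus, compared with 167 ± 12.9 CPM in PSC, without a call. With library size alone Stat3 and the phosphatase genes Ptpn1 and Ptpn11 passed as higher, so that the list then had 5 higher and 0 lower. Genes typical of LEPR-positive marrow stroma split. Of 7 tested, Cxcl12, a chemokine gene (2.56-fold), Angpt1, an angiopoietin gene (1.81-fold), Kitl, the stem cell factor gene (2.33-fold), and Grem1, a BMP antagonist gene (3.70-fold), were lower. The transcription factor genes Foxc1 and Ebf1 were 1.57-fold and 1.32-fold higher, and Ebf3 at 5.59 ± 2.68 CPM in DDR2-plus and at 8.99 ± 3.61 CPM in PSC did not pass. These 6 calls had the same direction with library size alone.

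Beyond the 10, a further 16 surface markers used for stem or stromal cells were tested, of which 5 were higher and 8 lower in DDR2-plus. Those higher were Cspg4, the NG2 proteoglycan gene (1.94-fold), Cd24a, which encodes a GPI-anchored sialoglycoprotein (4.0-fold), the adhesion gene Alcam (1.86-fold), Itga6, a laminin receptor chain (1.52-fold), and Kit, the stem cell factor receptor (2.37-fold). Among those lower were Cd63, a tetraspanin gene (1.71-fold), and Cd34, a sialomucin gene (3.96-fold), at 41.5 to 107 CPM in DDR2-plus and 197 to 337 CPM in PSC. The others lower were Cd44 (4.51-fold), Ngfr (2.95-fold), Dpp4 (2.25-fold), Vcam1 (1.90-fold), Pdgfra (1.87-fold) and Pdgfrb (1.40-fold). Cd164, which belongs to the human scheme, stood at 263 ± 9.95 CPM in DDR2-plus, compared with 292 ± 13.4 CPM in PSC, and did not pass (edgeR adjusted p = 0.0603). Itga5 and Icam1 did not pass either. With library size alone both passed as higher and Pdgfrb lost its lower call, so that 7 were higher and 7 lower. Of 3 tested genes of the CD200 receptor family, Cd200r1 was 3.35-fold higher, at 9.06 ± 3.04 CPM in DDR2-plus against 2.70 ± 1.25 CPM in PSC. Cd200r3 was scarce and rose to 0.937 ± 0.655 CPM in DDR2-plus, against 0.0501 ± 0.0799 CPM in PSC, where it had 11 counts over all libraries. Cd200r4 stood at 1.00 ± 0.728 CPM in DDR2-plus, compared with 0.275 ± 0.278 CPM in PSC, without a call.

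**Figure D5:**
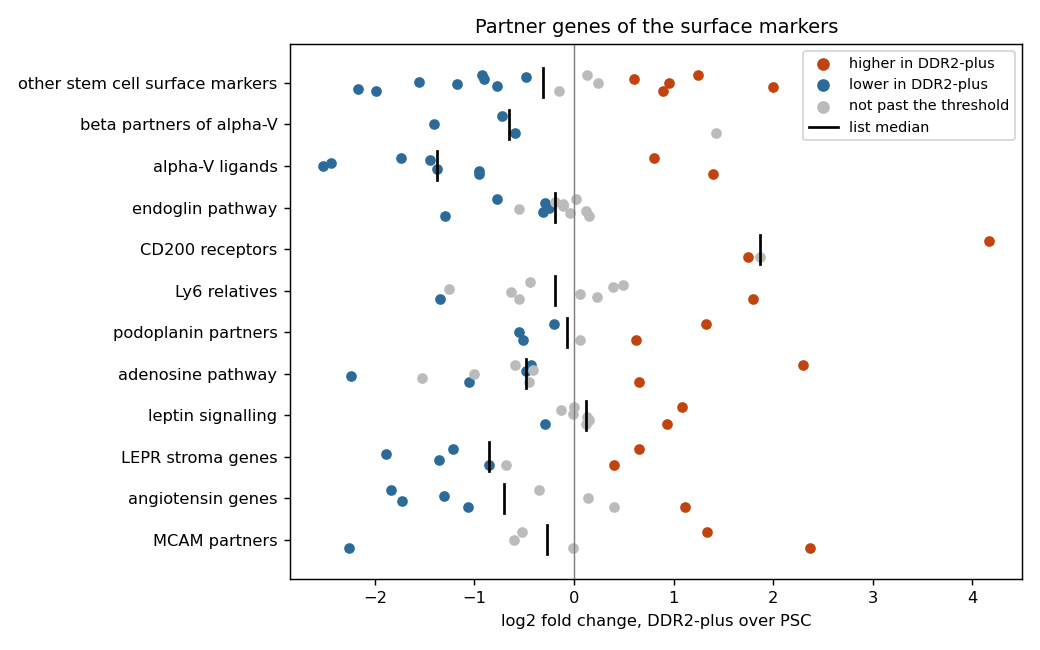
Log2 fold change, DDR2-plus over PSC, of every tested gene in 12 lists of partners and related surface markers; points are genes, coloured by call, and vertical bars are list medians. All 3 called beta partners of alpha-V lie below 0, and both called genes of the CD200 receptor family lie above it.

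The genes nearest in pattern to a marker were named by the smallest root mean square difference of log2 CPM over the 10 libraries, each gene centred on its own mean, among genes averaging at least 10 CPM. Nearest to Pdpn were Ski (0.102) and Capg (0.103), and nearest to Ly6a were Trio (0.143) and Adamts12 (0.161). Nt5e was nearest to Cdkn1a (0.125) and Snai1 (0.129). For Cd200 the nearest were Mthfd2 (0.0823) and Dazap2 (0.0880), and for Itgav they were Lrrfip1 (0.0575) and Chpf (0.0923). Lepr was nearest to Tent2 (0.137) and Ebag9 (0.155), and Eng to Zfp280d (0.231) and Erlin1 (0.238). The distances were larger for the scarce markers, with 0.450 to Pkia and 0.451 to Elmod2 for Enpep, 0.518 to Zeb2 and 0.529 to Rgs2 for Mcam, and 0.777 to Abca5 and 0.816 to Clcn5 for Thy1.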

How the data were processed

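RNA was measured in 10 libraries. Per the labels' protocols, RNA came from sorted cells, 1 ng of it was turned into cDNA by template switching, a transposase kit without strand marking gave the libraries, and paired reads of 50 cycles were taken. The deposited values are raw read counts per gene symbol, not normalized, and per the submitters' processing notes the build was mm10 and DESeq was used. For the aligner, the counting tool and the annotation, the sources used here name nothing.

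Differences were tested with edgeR 4.0.16 under R 4.3.3 (glmQLFit and glmQLFTest, TMM, filterByExpr, no covariates; Benjamini-Hochberg adjustment over all genes tested, threshold 0.05). Fold changes are DDR2-plus over PSC, CPM are TMM-scaled, and standard errors were derived from each F statistic and its log2 fold change. All 10 markers passed the filter. Alternatives were other scalings, DESeq2 1.42.0, limma-voom (limma 3.58.1), other filters, a block by library number, and leaving out each library. No 2 libraries of a population agreed within sampling noise (lowest chi-square per degree of freedom 40.9). Exon lengths, positions and shared 50-base stretches come from GENCODE M21 on GRCm38, which may differ from the authors' annotation and shifts levels per kb. Of the exon bases, 5.90% in Itgav, 1.51% in Eng and 0.507% in Mcam overlap another gene, whose reads cannot be told apart without strand. Amplified reads are not independent molecules.

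The markers and gene lists were chosen with earlier results of these data known. The text names all 10 markers, the 4 most abundant tested genes of each partner list, any gene behind a count of 5 or fewer, and the 2 genes nearest in pattern to each marker. Naming of some cell type markers, of Smad2, Ptpn1, Ptpn11 and Pdgfrb, whose calls depended on the scaling, of the scarce genes Clec1b, Itgb6 and Lep, and of Ly6c2 and Ly6i beside Ly6a was decided after their values were seen. The same holds for Cd44, Ngfr, Dpp4, Vcam1 and Pdgfra among the further surface markers.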

Additional observations from a re-analysis of the deposited data

Results flagged for a closer look

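Mcam in DDR2-plus 5 stood apart from the other libraries of its population, at 1.62 CPM, where the nearest of the other 4 was at 4.57 CPM (93 counts against at least 258). The 10 markers in 2 populations gave 20 groups of 5 libraries for this check, of which 1 was picked out, and chance picks out about 1 in 20. Without DDR2-plus 5 the log2 fold change of Mcam was -0.95 (edgeR adjusted p = 0.0592).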

How the results depend on the processing

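Pdpn, Ly6a and Nt5e kept their direction and their call in all 19 alternative settings. With library size alone 3 markers passed in place of 5, at log2 fold changes of -0.094 for Itgav (edgeR adjusted p = 0.426) and -0.89 for Mcam (edgeR adjusted p = 0.0939), and the signs of Cd200 (0.047), Thy1 (0.051), Enpep (0.047) and Lepr (0.023) turned without a call. Genes called then numbered 5408 higher and 1539 lower, against 3096 and 2926 with TMM. Thy1 also turned, without a call, with limma-voom (0.24) and with the block (0.18), and its log2 fold change lay between -0.51 and 0.28 when 1 library was left out; that of Enpep lay between -0.41 and 0.077. Leaving out 1 library gave between 5176 and 6020 genes called and between 4 and 6 markers called.

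By the rule used, a threshold of 0.1 on the correlation, the library numbers were not treated as pairs in the main fit. Same-numbered libraries still deviated together, with correlations of 0.0289 to 0.0532, above every other pair (-0.0512 to 0.0191). All 10 libraries correlated best with their own number. The sign of pairs was thus small in size but present in every library. The titles share the library numbers between the populations without stating pairs, and the main fit leaves pairs out. With the number as a block, 5742 genes and 4 markers passed; Mcam lost its call (edgeR adjusted p = 0.121), and no other marker's call changed. The scarce markers were the least precise: Thy1 had 6 to 75 counts per library, and its interval covers changes of either sign. A p that misses the threshold does not show that the populations are alike.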
